A study of Homo sapiens with 6 samples.

Results

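The 36 interferon-stimulated genes described here were taken by symbol from the 33542 genes of the deposited count table, and all 36 had a row there. By role they were the nucleic acid sensors IFIH1, DDX58, DDX60 and IFI16, the IFIT genes IFIT1, IFIT2, IFIT3 and IFIT5, the oligoadenylate synthetase genes OAS1, OAS2, OAS3 and OASL, and the GTPase genes MX1, MX2 and GBP1. The ISG15 conjugation system was represented by ISG15, USP18, HERC5 and HERC6, and transcriptional control by STAT2, IRF1, IRF7 and IRF9. The others were PARP9, PARP14, ISG20, BST2, CMPK2, SAMD9, SAMD9L, XAF1, IFI6, IFI27, IFI35, IFI44 and IFI44L.

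RNA was sequenced from T24 cells, a human bladder carcinoma line, in 3 libraries of cells given siRNA to TRAIP (siTRAIP) and 3 of cells given a control siRNA (siNC), all transfected with a Lipofectamine reagent. TRAIP encodes a ubiquitin ligase that acts at stalled replication forks. The question put to these genes is whether the transfection or replication stress comes with an interferon response. No untransfected library is among the samples, so a response to transfection, which both groups share, cannot be told apart from the state of untreated cells. No library of interferon-treated cells is among them either. The samples hold no direct measure of replication stress, so the comparison is only of TRAIP knockdown with a control siRNA. All 3 siTRAIP libraries bear the same siRNA label in the deposited columns, and no other siRNA to TRAIP is named. Effects of that siRNA beyond TRAIP therefore cannot be told apart from those of TRAIP loss.

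Interferons are secreted proteins that cells make after sensing foreign or misplaced nucleic acid. Type I interferon acts through JAK kinases to form ISGF3, a complex that includes STAT2 and IRF9 and binds the interferon-stimulated response element (ISRE) in promoters and switches on antiviral genes, whereas interferon gamma acts mainly through the gamma-activated sequence (GAS). Products of these genes bind viral RNA, degrade it, modify proteins with ISG15 or raise the sensors themselves, so that many of them move together when the pathway fires.

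The promoters were searched because the ISRE is the element through which ISGF3 acts. RefSeq promoter sequences (GRCh38.p14, 250 bases before to 50 bases after each listed start) were found for 30 of the 36 genes, DDX58 under its newer symbol RIGI. IFIT2, OAS2, OASL, MX2, USP18 and IRF7 were not matched. The ISRE core, which is GAAA, any 2 bases and GAAA, read on both strands, was present at 1 or more listed starts of 19 of the 30 (63.3%), against 4.38% of the 27305 genes with a sequence in that table. The GAS word TTCNNNGAA was present in 9 of the 30 (30%), against 9.38% of those genes, and in 3 of them (MX1, BST2 and IFI27) it overlapped an ISRE core. The following windows of 30 bases show an ISRE core in capitals, overlapping cores included, written 5′ to 3′ along the gene's own strand, for the 3 called genes that hold it and, per length, the 3 most abundant of the others that do.
IFIT3 (chr10:89327865-89327894, plus strand): tttaaattagTTTCACTTTCcagtttcctc
MX1 (chr21:41420559-41420588, plus strand): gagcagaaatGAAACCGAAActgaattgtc
IFI44L (chr1:78620365-78620394, plus strand): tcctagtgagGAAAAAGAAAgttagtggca
BST2 (chr19:17405738-17405767, minus strand): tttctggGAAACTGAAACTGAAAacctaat
IFI44 (chr1:78649761-78649790, plus strand): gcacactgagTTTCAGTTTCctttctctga
ISG15 (chr1:1013377-1013406, plus strand): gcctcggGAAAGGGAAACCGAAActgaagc
A match is a word in a sequence and not a measured binding site. Of the 3 genes called higher after TRAIP knockdown 2 held the ISRE core, as did 1 of the 3 called lower and 16 of the 23 matched genes that were tested and not called.

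Library totals ran from 39111793 to 70439496 counts in siTRAIP and from 54818483 to 58066330 in siNC. TRAIP averaged 12.95 ± 1.61 CPM (counts scaled to library size with TMM factors) in siTRAIP libraries and 27.8 ± 1.04 CPM in siNC libraries (SD, n = 3 each), a log2 fold change of -1.11 (standard error 0.07, adjusted p = 6.74e-10 by edgeR). Of the epithelial markers, KRT7, KRT8 and KRT18 averaged 301, 239 and 157 RPKM (counts scaled to gene length and library total) over the 6 libraries, whereas the epithelial cadherin gene CDH1 had 0 to 7 counts and the urothelial factor gene GATA3 2 to 17 counts per library. Of 10 leukocyte markers 6 had a row, and those other than the lysosomal CD68 summed to 9, 11 and 10 counts in siTRAIP libraries and 5, 8 and 9 counts in siNC libraries. The library of siTRAIP replicate 3 differed from its group more than any other, with a chi-square per degree of freedom of 17.36 and 18.01 against the other 2, and 3.35 to 7.93 between the remaining pairs of 1 group. Of 6 fibroblast markers with a row 4 were highest in that library. COL1A1 had 39, 42 and 294 counts in siTRAIP and 60, 60 and 66 counts in siNC libraries. COL3A1 had 0, 0 and 30 counts in siTRAIP and 0, 6 and 4 in siNC libraries, COL1A2 2, 2 and 18 against 6, 6 and 2, and PDGFRA 0, 0 and 12 against 2, 0 and 0. The 6 markers summed to 120 to 126 CPM in siTRAIP and 122 to 124 CPM in siNC libraries, nearly all of it COL6A2. The part of these markers in the values that rest on siTRAIP replicate 3 was not tested.

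**Figure D1:**
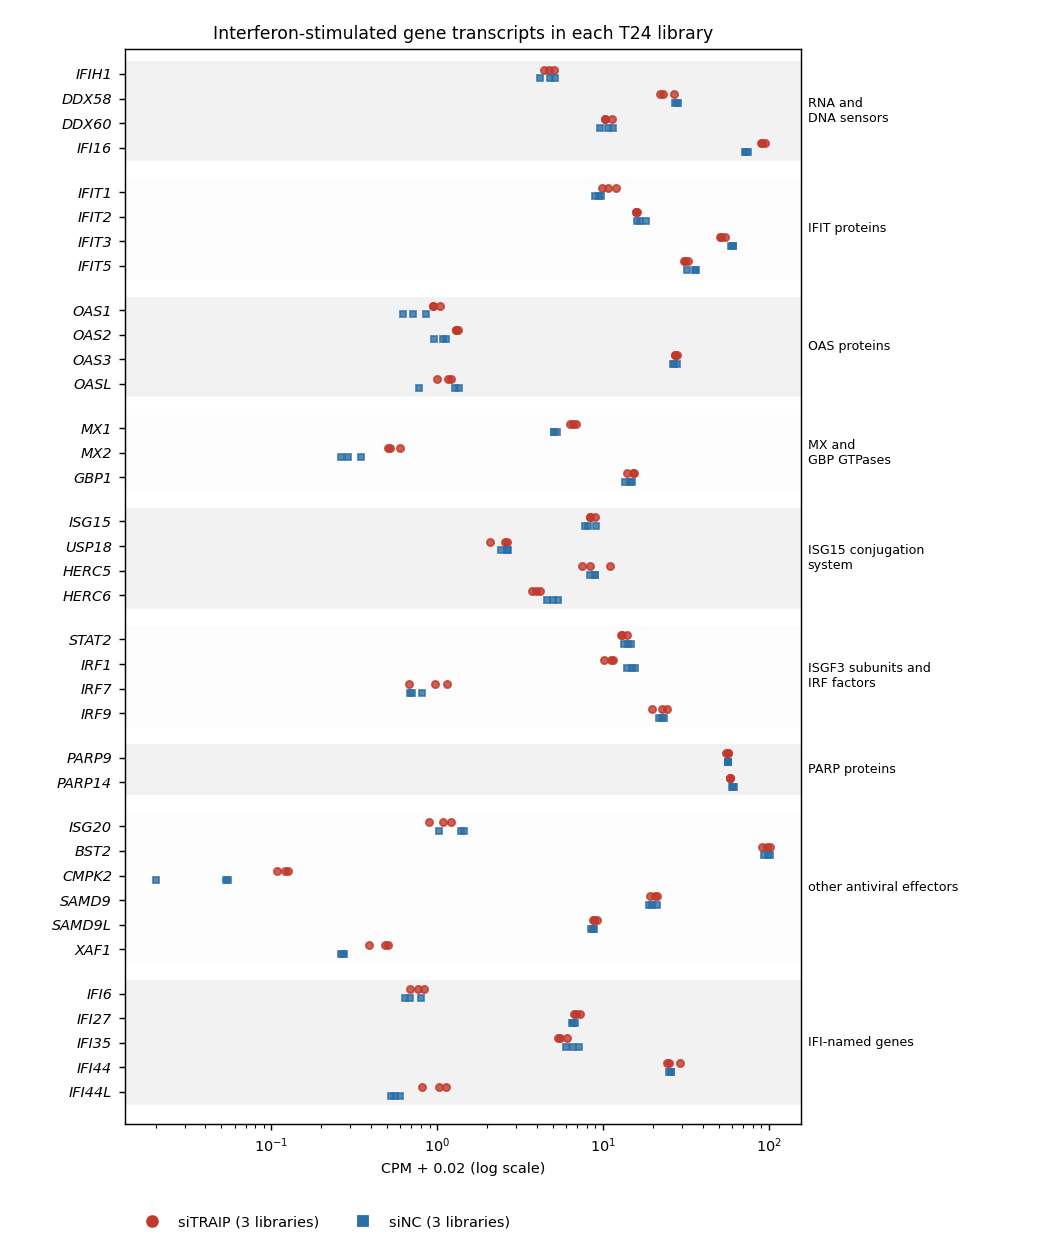
Level of each of the 36 genes in every library, as CPM + 0.02 on a log axis, grouped by role, with siTRAIP libraries as circles above and siNC libraries as squares below in each row. The genes span from 0 CPM (CMPK2 in siNC replicate 2) to 102 CPM (BST2 in siTRAIP replicate 2), and for 21 of the 35 tested genes the groups overlap.

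T24 cells held most of these transcripts at modest levels in both groups. Per length, the median of the 36 genes was 1.76 RPKM over the 6 libraries, against 2.34 RPKM over all 18685 tested genes. BST2, which encodes tetherin, a membrane protein that holds budding virus particles at the cell surface, stood highest, at 85.04, 89.9 and 80.1 RPKM in siTRAIP libraries and 93.2, 89.0 and 85.9 RPKM in siNC libraries. IFIT3 (21.4 RPKM over all libraries), IFI16 (15.6 RPKM), IFI44 (12.7 RPKM) and ISG15 (8.92 RPKM) followed. At the other end CMPK2, a mitochondrial nucleotide kinase gene next to the antiviral RSAD2, had 4, 4 and 7 counts in siTRAIP libraries and 2, 0 and 2 counts in siNC libraries. It was the only one of the 36 that did not pass the expression filter.

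The calls among interferon-stimulated genes were split evenly between directions. Of the 35 tested genes 3 rose (IFI16, MX1 and IFI44L), 3 fell (IRF1, IFIT3 and DDX58) and 29 did not pass the test (edgeR, adjusted p under 0.05). Called genes thus made up 17.1% of the tested members, beside 12.8% of all tested genes, of which 7.47% were higher and 5.34% lower. The median log2 fold change of the 35 was 0.02, beside -0.0017 over all tested genes, with 20 values above 0 and 15 below. The groups did not overlap for 14 of them, 8 higher and 6 lower in siTRAIP, beside 14.8% and 14.4% of all tested genes (29.1% in either direction). In bulk RNA of this kind, fewer cells of a type and less RNA per cell cannot be told apart.

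The precision of the fit limits how large a hidden rise could be. The 95% interval of the fold change lay wholly below a 2-fold rise for 32 of the 35 genes, and wholly below a 1.5-fold rise for 28. MX2, XAF1 and IFI44L, each averaging under 1 CPM in both groups, were the 3 whose interval reached 2-fold. The summed CPM of the 36 genes was 649 ± 6.31 in siTRAIP and 650 ± 7.97 in siNC libraries (SD, n = 3 each), and the groups overlapped. That sum weights abundant genes such as BST2 and IFI16 most. Genes near 1 CPM hardly move it, and rises and falls of single genes can cancel in it. On the deposited RPKM, which carry no TMM factors and weight short genes such as BST2 more, the sum was 207 ± 3.63 in siTRAIP and 218 ± 3.89 in siNC, without overlap. Without siTRAIP replicate 3, 2 of the 35 were called higher and 4 lower, beside 7.71% and 6.03% of all genes. Without siNC replicate 1, 1 was called higher, beside 4.59%, and limma on RPKM also called 1 higher at either pseudocount, beside 2.47% and 2.41%. With library totals in place of TMM factors 5 were called lower, beside 11%. With replicate number as a block 3 were called higher and 3 lower, beside 6.85% and 4.63%.

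**Figure D2:**
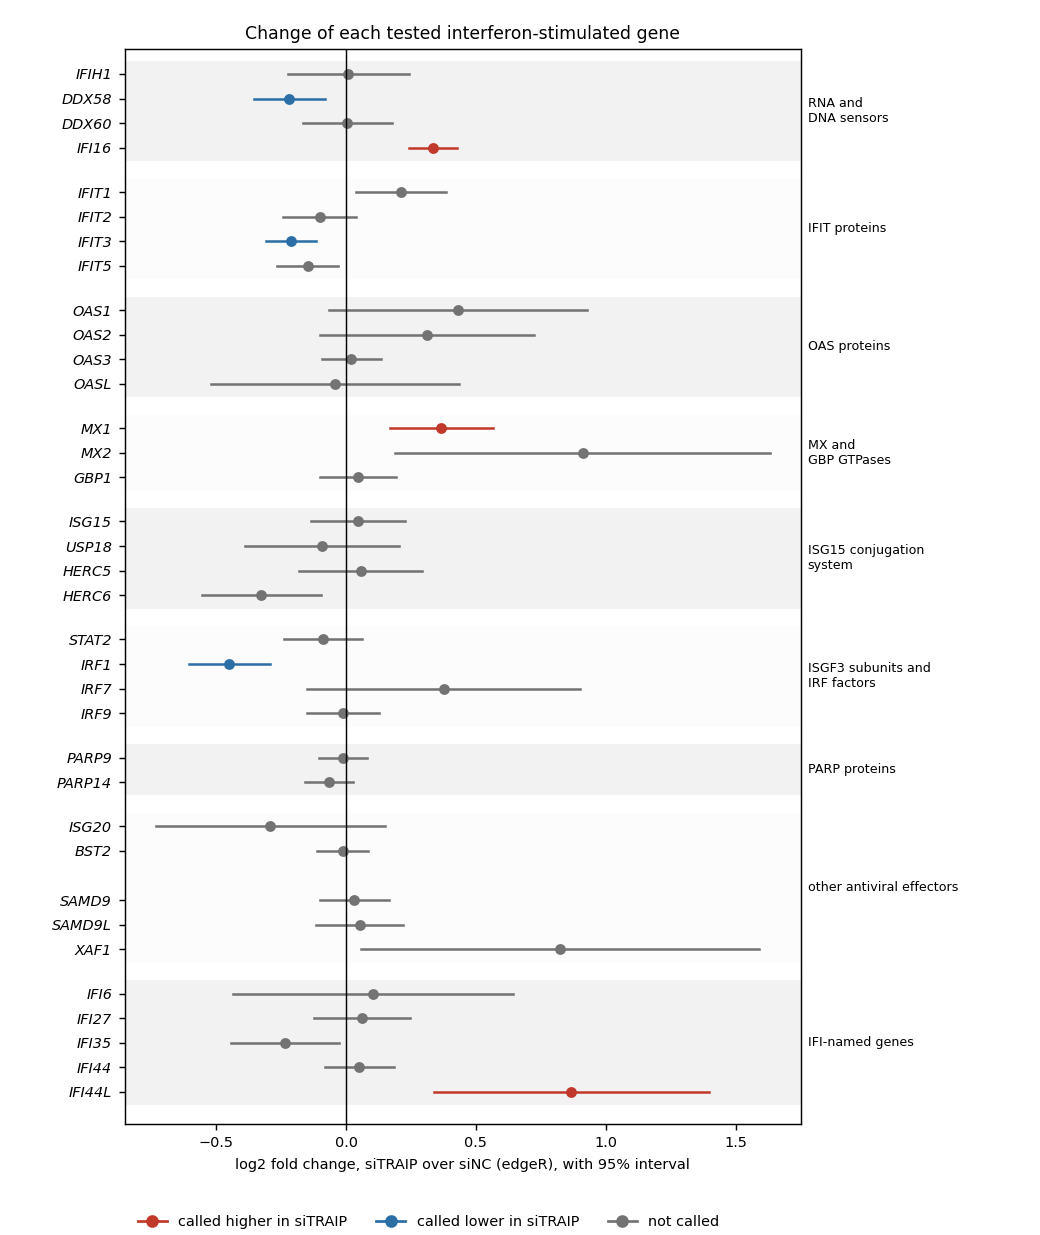
Log2 fold change of each tested gene, siTRAIP over siNC, with its 95% interval from edgeR, grouped by role (CMPK2 was not tested). IFI16, MX1 and IFI44L lie above 0 and IRF1, IFIT3 and DDX58 below as called genes, and the widest intervals belong to low genes such as MX2, XAF1 and IFI44L.

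Among the sensors the calls went both ways. IFI16, a nuclear DNA sensor of the HIN-200 family (chromosome 1, 158999968 to 159055155, GRCh38), stood at 91.0, 89.7 and 95.6 CPM in siTRAIP libraries and at 74.9, 72.5 and 71.7 CPM in siNC libraries. Every siTRAIP library was above every siNC library, and the log2 fold change was 0.33 (standard error 0.04, adjusted p = 1e-05 by edgeR), a fold of 1.26. DDX58, which encodes the cytosolic RNA sensor RIG-I (chromosome 9, 32455705 to 32526324), stood at 21.9, 22.9 and 26.7 CPM in siTRAIP libraries and at 28.5, 27.8 and 27.4 CPM in siNC libraries. The groups did not overlap, but siTRAIP replicate 3 lay close to the controls and the log2 fold change of -0.22 (standard error 0.07) passed narrowly (by edgeR, adjusted p = 0.0297). Dropping any 1 library except siTRAIP replicate 3 ended that call (adjusted p from 0.0625 to 0.167), as did limma on RPKM at either pseudocount (0.067 and 0.0686). The sensor gene IFIH1 and the helicase gene DDX60 had log2 fold changes of 0.01 (standard error 0.11 and 0.08) with overlapping groups.

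Of the 4 IFIT genes IFIT3 fell and the others did not pass. IFIT proteins bind viral RNA or hold up its translation, and their genes lie side by side on chromosome 10. IFIT3 (89327894 to 89340971) stood at 54.2, 51.7 and 50.8 CPM in siTRAIP libraries, all below the 59.6, 61.0 and 60.6 CPM of siNC libraries. Its log2 fold change was -0.21 (standard error 0.05, adjusted p = 0.00269 by edgeR). IFIT1, whose protein binds foreign RNA with an incompletely methylated cap, had 10.7, 9.87 and 11.9 CPM in siTRAIP libraries and 8.997, 9.498 and 9.68 CPM in siNC libraries. Its values lay above those of the controls in every library, yet the log2 fold change of 0.21 (standard error 0.08) did not pass (by edgeR, adjusted p = 0.105). IFIT5 had 32.6, 31.3 and 30.7 CPM in siTRAIP and 36.6, 35.99 and 32.1 CPM in siNC libraries, a log2 fold change of -0.15 (by edgeR, adjusted p = 0.0953) with overlapping groups. IFIT5 was called lower with library totals (adjusted p = 0.0137) and without siNC replicate 3 (0.0306). IFIT2 had a log2 fold change of -0.10 (by edgeR, adjusted p = 0.385), and other genes share 8.7% of its exonic bases on its own strand.

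The products of OAS1, OAS2 and OAS3 sense double-stranded RNA and make the messenger that activates RNase L, whereas the related OASL protein lacks that synthetase activity. None of the 4 genes passed the test with edgeR or limma, beside 12.8% of all tested genes called with edgeR. OAS3 did not pass with DESeq2 either, and DESeq2 gave OAS1, OAS2 and OASL no adjusted p. With edgeR 0 of the 4 had an unadjusted p under 0.05, beside 4629 of all 18685 tested genes. OAS3, the most abundant of them, had 27.9, 27.3 and 27.3 CPM in siTRAIP and 28.0, 26.7 and 26.6 CPM in siNC libraries. Its log2 fold change was 0.02, with a 95% interval from -0.09 to 0.13. OAS1 and OAS2 were near 1 CPM, at 0.92 to 1.03 and 1.27 to 1.32 CPM in siTRAIP libraries and 0.60 to 0.83 and 0.94 to 1.11 CPM in siNC libraries, so their groups did not overlap. Their log2 fold changes were 0.43 (standard error 0.24) and 0.31 (standard error 0.20), with edgeR adjusted p of 0.285 and 0.365. OASL had a log2 fold change of -0.04 (standard error 0.23).

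MX1, a dynamin-like GTPase that traps viral ribonucleoproteins (chromosome 21, 41420304 to 41459214), rose at a low level. It stood at 6.32, 6.81 and 6.57 CPM in siTRAIP libraries, each above the 5.02, 5.24 and 5.04 CPM of siNC libraries, a log2 fold change of 0.37 (standard error 0.10, adjusted p = 0.0117 by edgeR). Dropping siNC replicate 1 ended the call (adjusted p = 0.0549), as did limma on RPKM (0.143 and 0.128 at the low and high pseudocount). Its neighbour MX2 had 19, 22 and 40 counts in siTRAIP and 14, 18 and 16 counts in siNC libraries, or 0.50, 0.48 and 0.58 CPM against 0.24, 0.33 and 0.27 CPM. The groups did not overlap and the log2 fold change was 0.91 (standard error 0.35), but it did not pass (by edgeR, adjusted p = 0.0935). GBP1, a guanylate-binding protein gene that answers strongly to interferon gamma, had a log2 fold change of 0.05, with a 95% interval from -0.10 to 0.19.

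The ISG15 system, which attaches a ubiquitin-like modifier to newly made proteins, held no called gene with edgeR at its main settings, DESeq2 or limma. With edgeR 12.8% of all tested genes were called. Of the system's 4 genes 1, HERC6, had an unadjusted edgeR p under 0.05, beside 4629 of all 18685 tested genes. ISG15, the modifier itself, had 8.32, 8.31 and 8.95 CPM in siTRAIP and 8.07, 7.75 and 9.01 CPM in siNC libraries, with overlapping groups. Its log2 fold change was 0.05, with a 95% interval from -0.13 to 0.23. The ligase gene HERC5 had 7.51, 8.40 and 10.95 CPM in siTRAIP and 8.997, 8.88 and 8.31 CPM in siNC libraries, so siTRAIP replicate 3 alone lay above the controls. HERC6, its close relative next to it on chromosome 4, stood at 3.74, 3.91 and 4.16 CPM in siTRAIP libraries, all below the 5.00, 5.31 and 4.57 CPM of siNC libraries. Its log2 fold change of -0.33 (standard error 0.11) missed the threshold (by edgeR, adjusted p = 0.0542). HERC6 was called lower with library totals in place of TMM factors (adjusted p = 0.019), where genes needed 1 CPM in 3 libraries (0.0438) and without siTRAIP replicate 3 (0.0476). USP18, the protease that removes ISG15 and restrains receptor signalling, had a log2 fold change of -0.09 (standard error 0.14).

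Of the transcription factors, IRF1 fell. IRF1 is an interferon gamma target that binds ISRE-like sites (chromosome 5, 132481609 to 132490798), and its promoter held a GAS word and no ISRE core. It stood at 11.4, 11.2 and 10.2 CPM in siTRAIP libraries, all below the 13.9, 15.0 and 15.6 CPM of siNC libraries. The log2 fold change was -0.45 (standard error 0.08, adjusted p = 2.15e-04 by edgeR), a fold of 0.733, although genes on the opposite strand share 22% of its exonic bases. The ISGF3 subunit genes STAT2 and IRF9 had log2 fold changes of -0.09 and -0.01, with 95% intervals from -0.24 to 0.06 and from -0.15 to 0.13, and AL136295.5 shares 48.4% of the exonic bases of IRF9. IRF7, which amplifies interferon production once induced, had 36, 30 and 78 counts in siTRAIP and 45, 38 and 40 counts in siNC libraries, and its log2 fold change was 0.38 (standard error 0.25, adjusted p = 0.396 by edgeR).

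Of the remaining effectors, the more abundant had the tightest intervals. BST2 had a log2 fold change of -0.01 with a 95% interval from -0.11 to 0.09. PARP9 and PARP14, ADP-ribosyltransferase family genes, had -0.01 (95% interval -0.10 to 0.08) and -0.07 (-0.16 to 0.03). PARP9 stood at 55.5, 56.8 and 57.2 CPM in siTRAIP libraries and 57.0, 56.8 and 57.0 CPM in siNC libraries. The antiviral paralogs SAMD9 and SAMD9L, which lie next to each other on chromosome 7, had log2 fold changes of 0.03 and 0.05 (standard error 0.06 and 0.08). ISG20, an exonuclease gene, had -0.29 (standard error 0.21, adjusted p = 0.444 by edgeR). XAF1, an apoptosis factor gene, had 14, 22 and 32 counts in siTRAIP and 14, 14 and 15 counts in siNC libraries, a log2 fold change of 0.82 (standard error 0.37) that did not pass (by edgeR, adjusted p = 0.165), and PRAL shares 38.3% of its exonic bases.

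Among the genes named IFI, IFI44L rose and its neighbour IFI44 did not pass. IFI44L (chromosome 1, 78619922 to 78646145) had 30, 46 and 77 counts in siTRAIP libraries and 29, 32 and 32 counts in siNC libraries. Scaled for depth these were 0.79, 1.011 and 1.12 CPM in siTRAIP, each above the 0.51, 0.58 and 0.54 CPM of siNC. The log2 fold change was 0.87 (standard error 0.25, adjusted p = 0.0252 by edgeR). Dropping any 1 library except siTRAIP replicate 1 ended the call (adjusted p from 0.0563 to 0.111), as did limma on RPKM (0.141 and 0.189). DESeq2 gave IFI44L no adjusted p, and the gene was not tested where genes needed 1 CPM in 3 libraries. IFI44 stood at 24.5, 25.2 and 29.1 CPM in siTRAIP and 25.6, 25.0 and 25.7 CPM in siNC libraries, a log2 fold change of 0.05 (standard error 0.06). IFI27 and IFI6, known as strong interferon targets in other cells, had log2 fold changes of 0.06 (standard error 0.09) and 0.10 (standard error 0.26). IFI35 had -0.23 (standard error 0.10, adjusted p = 0.143 by edgeR).

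**Figure D3:**
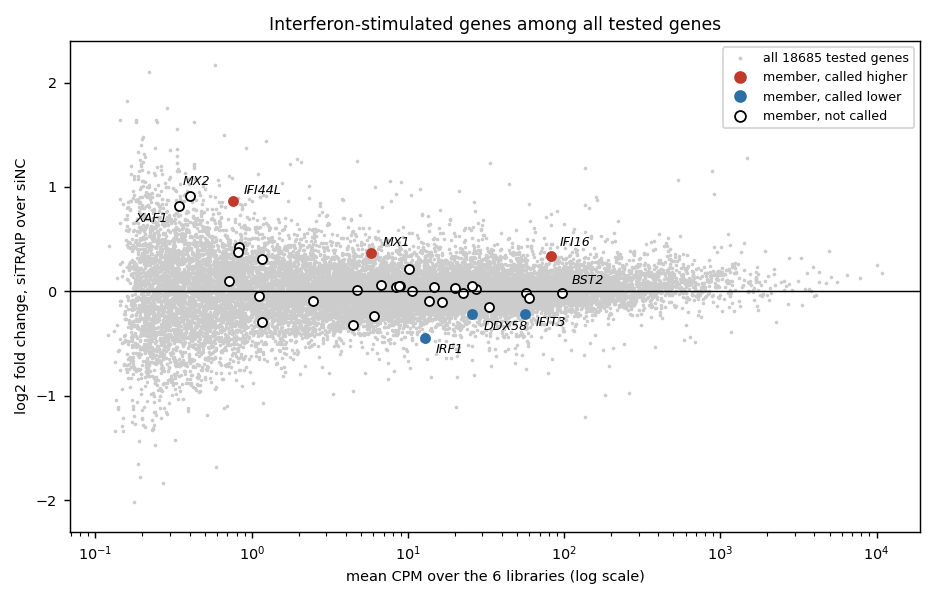
Log2 fold change of siTRAIP over siNC against mean CPM over the 6 libraries on a log axis, with all 18685 tested genes in grey and the 35 tested interferon-stimulated genes marked by their call. The members lie within the grey cloud at every level, from XAF1 and MX2 at the low end to IFI16 and BST2 at the high end.

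The rest of the pathway was read from lists of ligands, receptors, kinases, sensors and further targets. Of 90 tested genes on these lists 6 rose and 11 fell (18.9%), beside 12.8% of all tested genes called (7.47% higher and 5.34% lower), with a median log2 fold change of -0.01. Of 21 interferon genes, 3 had a row in the table and the other 18, IFNB1 included, were not analysed here. No gene of the table had 0 counts in all libraries. Whether the 18 are missing for lack of counts was not tested. IFNA1 had 4, 5 and 0 counts in siTRAIP and 0, 0 and 2 counts in siNC libraries. IFNE, an interferon gene of epithelia, had 39, 29 and 74 counts in siTRAIP and 19, 51 and 35 counts in siNC libraries. Its log2 fold change of 0.59 (standard error 0.32) did not pass (by edgeR, adjusted p = 0.265).

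Of the 6 receptor genes, IFNAR2, a type I interferon receptor chain, had 14.7, 16.3 and 15.2 CPM in siTRAIP and 17.8, 17.97 and 18.2 CPM in siNC libraries. It fell, with a log2 fold change of -0.22 (standard error 0.07, adjusted p = 0.0253 by edgeR). The call was lost without siTRAIP replicate 1 or any single siNC library (adjusted p from 0.0698 to 0.102), and other genes share 39.1% of its exonic bases on the opposite strand and 44.2% on its own. The partner chain gene IFNAR1 had a log2 fold change of -0.03 (95% interval -0.14 to 0.07). IFNGR1, IFNGR2, IL10RB and IFNLR1 had -0.0016, 0.06, -0.05 and -0.02. None of the 10 genes of JAK, STAT and feedback control was called with edgeR, DESeq2 or limma. With edgeR 12.8% of all tested genes were called. An unadjusted edgeR p under 0.05 was found for 2 of the 10, beside 4629 of all 18685 tested genes.

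Of 15 tested sensing and adaptor genes 2 rose and 2 fell (26.7%, beside 12.8% of all tested genes). The groups did not overlap for 3 that were higher and 7 that were lower in siTRAIP, beside 14.8% and 14.4% of all tested genes. TRAF3, an adaptor that links receptors to interferon production, rose by a log2 fold change of 0.39 (standard error 0.05, adjusted p = 9.4e-06 by edgeR), and the RNA-binding LSM14A by 0.24 (standard error 0.05, adjusted p = 0.00282 by edgeR). LSM14A was not called with limma on RPKM (adjusted p = 0.112 and 0.114). IKBKE, a kinase of IRF3 related to TBK1, fell by 0.32 (standard error 0.06, adjusted p = 0.00114 by edgeR), and MAVS, the mitochondrial adaptor of RIG-I, by 0.15 (standard error 0.05, adjusted p = 0.0307 by edgeR) on the log2 scale. The MAVS call was lost without siTRAIP replicate 1 or any 1 of the siNC libraries (adjusted p from 0.0636 to 0.135). CGAS, listed as MB21D1, and STING1, listed as TMEM173, which form the cytosolic DNA sensing route, had log2 fold changes of -0.20 (standard error 0.10) and -0.43 (standard error 0.17). Neither passed (by edgeR, adjusted p = 0.231 and 0.112), though for both genes every siTRAIP library lay below every siNC library. STING1 was low, at 1.53, 1.41 and 1.26 CPM in siTRAIP and 1.71, 2.02 and 1.86 CPM in siNC libraries. None of the 8 genes of nucleic acid clearance passed with edgeR, DESeq2 or limma, beside 12.8% of all tested genes called with edgeR. An unadjusted edgeR p under 0.05 was found for 1 of the 8 (RNASEH2A), beside 4629 of all 18685 tested genes.

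Of 40 further interferon-stimulated genes 4 rose and 7 fell (27.5%, beside 12.8% of all tested genes). OGFR, the opioid growth factor receptor gene, had 102, 106 and 99.6 CPM in siTRAIP and 59.8, 58.5 and 65.1 CPM in siNC libraries, a log2 fold change of 0.75 (standard error 0.05, adjusted p = 1.86e-10 by edgeR). The ADP-ribosyltransferase family gene PARP12 fell by 0.31 (standard error 0.07, adjusted p = 0.00266 by edgeR) on the log2 scale. APOL2 rose by 0.44 (standard error 0.10, adjusted p = 0.00652 by edgeR), with 13.7, 14.3 and 18.5 CPM in siTRAIP and 11.1, 11.3 and 12.2 CPM in siNC libraries, and was not called with limma on RPKM (adjusted p = 0.114 and 0.121). Without siTRAIP replicate 3 its log2 fold change was 0.28. Of 10 tested genes induced by interferon gamma the adhesion gene ICAM1 alone was called (10%, beside 12.8% of all tested genes). It fell by 0.18 (standard error 0.05, adjusted p = 0.0165 by edgeR) on the log2 scale, and the call was lost without any single siNC library (adjusted p from 0.0516 to 0.0698).

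**Figure D4:**
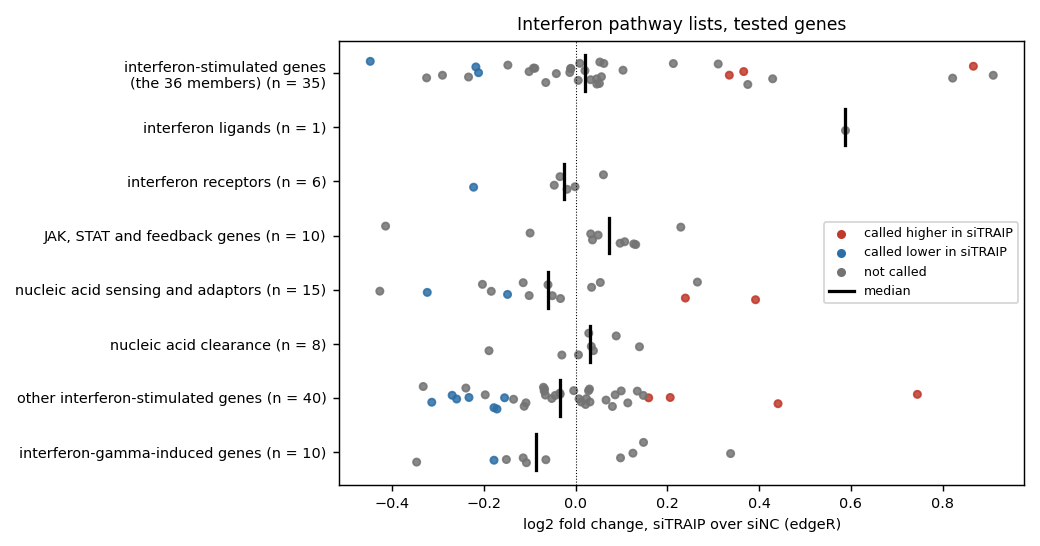
Log2 fold change of siTRAIP over siNC for the tested genes of each interferon pathway list, 1 point a gene, coloured by call, with the median as a bar. Medians lie between -0.09 and 0.07 for every list with more than 1 tested gene, and IFNE stands alone for the ligands at 0.59.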

How the data were processed

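For the 6 libraries the authors deposited gene counts as whole numbers, and RPKM values beside them. RPKM equal count over length and summed counts within a relative difference of 1.3e-06 and carry no further scaling. Per the submitters' processing notes the build was GRCh38 and the tools included Subread 1.5.1, featureCounts and Trimmomatic 0.36. The kit was stranded, per the labels' protocols. For the aligner, annotation and strand setting of the counting: not given in the sources used here. Even numbers made up 70.2% of counts from 1 to 10 and 50.8% of those above 1000, so both reads of a pair may often have been counted and a low count may stand for fewer fragments than its number. Halved counts were tried as an alternative.

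Groups and replicate numbers came from sample titles. Genes passing filterByExpr (18685 of 33542) were tested with edgeR 4.0.16 in R 4.3.3 (TMM, quasi-likelihood F-test, robust=TRUE), comparing siTRAIP with siNC in a 2-sided test. Benjamini-Hochberg adjustment ran over all tested genes, with a threshold of 0.05. The standard error is the log2 fold change over the square root of F. Alternatives used DESeq2 1.42.0 and limma 3.58.1 on log2(RPKM + 0.1) and log2(RPKM + 1). The fit was tested on simulated data. Exon overlaps came from GENCODE 29 (GRCh38), positions from the deposited table, and promoters from RefSeq. The labels name no separate cultures, so p-values reflect only how these samples vary, and that variation may be technical.

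The members and lists were chosen with earlier results of these data known. Named were all 36 members, with values per library for called ones and the 8 with the highest mean RPKM, plus up to 3 called genes per other list with the smallest adjusted p, CGAS, STING1 and the receptors. MAVS, MX2, XAF1, CMPK2, IFIT1, HERC5, HERC6, IRF7, OAS1, OAS2 and OAS3 were given in detail after their values were seen. Also named outside this rule were IFNA1, IFNE, RNASEH2A, CXCL9, CXCL10, CXCL11, RSAD2, TNFSF10, BATF2, IFITM1, IFITM2, GBP4 and the cell type markers. Of the genes this rule names, 1 is not reported here.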

Additional observations from a re-analysis of the deposited data

How the results depend on the processing

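TRAIP fell under every alternative run, with log2 fold changes from -1.21 to -0.99. Genes called higher among the members numbered 1 with limma on log2(RPKM + 0.1) or log2(RPKM + 1), against 3 with edgeR, and genes called lower numbered 5 with library totals in place of TMM factors, against 3. With 1 library left out, 1 to 3 members were higher and 2 to 4 lower, with 1480 to 2622 of all genes called, against 2393; the lowest of these, 1480 and 1 member higher, came without siNC replicate 1. Limma called 1520 and 1519 genes. The members' median log2 fold change was -0.0402 with library totals, and -0.0388 and -0.0230 with limma at the low and high pseudocount. The median over all tested genes was then -0.0617, -0.0580 and -0.0322, against -0.0017 at the main settings. The members' median was -0.0121 where genes needed 1 CPM in 3 libraries (29 members tested) and 0.0121 with halved counts. With 1 library left out it was 0.00181 to 0.0452. The cause was not tested. Over 100 values for the 6 called members 17 lost the call and none changed sign. Over 479 values for the 29 others 5 gained it (IFIT5 and HERC6) and 44 changed sign without a call. IFI16, IFIT3 and IRF1 passed in all 17 alternatives. The titles do not say that equal replicate numbers mark pairs: the correlations between same-numbered libraries, as deviations from group means, were 0.035, -0.094 and -0.014. With the number as a replicate block 3 members were higher and 3 lower, the members' median was 0.02, and 2145 genes were called. Depth limits genes under about 1 CPM most.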

Other observations

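The 9 tested members below 1.5 CPM on average (OAS1, OAS2, OASL, MX2, IRF7, ISG20, XAF1, IFI6 and IFI44L) were mostly higher in siTRAIP. Their median log2 fold change was 0.38, 7 of 9 were above 0, and for 5 of 9 (55.6%) every siTRAIP library lay above every siNC library. Among all 5104 tested genes below that level the median was -0.0020, 49.7% were above 0, and 6.72% had every siTRAIP library above every siNC library. CMPK2, too low to test, had the same order, with 4, 4 and 7 counts in siTRAIP and 2, 0 and 2 counts in siNC libraries. The boundary was set after the values were seen, and the pattern was not tested. Of these 9 genes IFI44L alone was called (11.1%), beside 1.41% of all tested genes below that level. On the list of further interferon-stimulated genes, RSAD2, TNFSF10, BATF2, IFITM2 and IFITM1 were also tested below that level. Their log2 fold changes were 0.09, 0.02, 0.02, -0.0045 and -0.24, and the groups of each overlapped. GBP4, from the interferon gamma list, had -0.35, also with overlapping groups. At 30 CPM and above the 6 members (IFI16, IFIT3, IFIT5, PARP9, PARP14 and BST2) had a median of -0.04, with 1 of 6 above 0. All 5095 tested genes of that level had a median of 0.02, with 55.3% above 0. In between, from 1.5 to 10 CPM, 6 of 9 members were above 0 (median 0.05), beside 46.3% of all tested genes of that level. From 10 to 30 CPM 6 of 11 members were above 0 (median 0.0053), beside 45.6%.

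CXCL11, a chemokine gene induced by interferon gamma, had 8 counts in siTRAIP replicate 3 and 0 in the other 5 libraries. That library was the deepest and differed most from its group, and so low a count may stand for fewer fragments. CXCL9 had 2 counts in that library and 0 in the other 5, and CXCL10 had no row used here. CD68, whose exonic bases overlap AC016876.2 over 81.7%, rose by 0.31 on the log2 scale (standard error 0.06, adjusted p = 9.17e-04 by edgeR). The leukocyte list it belongs to summed to 38.9 to 46.3 CPM in siTRAIP and 34.3 to 36.1 CPM in siNC libraries, nearly all of it CD68, with PTPRC at 0 to 4 counts and 4 of the 10 markers without a row used here.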
